A study of Homo sapiens with 21 samples.

Results

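The 35 genes described here encode the glucose transporters and enzymes of glycolysis together with a group of genes whose transcription is known to rise in low oxygen. They were listed by name, and each matched 1 gene among the 60671 genes in the deposited table. Of the 35, 21 carry glucose into the cell and down the pathway to lactate, or restrain the oxidation of pyruvate (SLC2A1 to PDK1), and the other 14 are further hypoxia-inducible genes.

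Polyadenylated RNA was sequenced from 21 libraries in 7 groups of 3. OCI-AML3, a human acute myeloid leukaemia line grown in suspension in RPMI medium, was sampled untreated (0 h), after 4 h or 24 h with the solvent DMSO, and after 4 h or 24 h with 1 μg/mL tunicamycin, a compound that blocks the first step of N-linked glycosylation and thereby causes endoplasmic reticulum (ER) stress. HEK293T, a human embryonic kidney line grown attached in DMEM, was sampled after 24 h with DMSO or with 1 μg/mL tunicamycin. The labels name no genetic change in any group and do not say whether the replicates of a group were separate cultures, so p-values measure the spread between these libraries, which may be technical. No OCI-AML3 culture kept for 24 h without DMSO and no 4 h sample of HEK293T was used here, so time in culture cannot be told apart from time in DMSO, and cell line cannot be told apart from medium.

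Libraries held 13838503 to 19961828 counts (median 16657760), and 3 counts in a library corresponded to 0.15 to 0.217 CPM (counts scaled to a common library total). All 8 myeloid markers tested (such as PTPRC, SPI1 and MPO) were above 3 counts in every OCI-AML3 library, with a summed level of 899.4 to 1332 CPM, whereas the 6 kidney line markers summed to 3.09 to 5.48 CPM. Of these 6, LIN28B, PAX2 and NEFM stayed at 3 counts or fewer in OCI-AML3 cells and KRT8 held 0 to 12 counts, while CDH2 and KRT18 were above 3 counts in every library. KRT18 rose in OCI-AML3 cells over time (1.01) and with tunicamycin at 24 h (0.99, log2 scale), from 0.45 ± 0.154 CPM in DMSO 4 h to 0.903 ± 0.203 CPM in DMSO 24 h and 1.83 ± 0.429 CPM in tunicamycin 24 h, and its part in the results below was not tested. In HEK293T libraries all 6 kidney line markers were present (summed level 330.1 to 391.2 CPM) and the 8 myeloid markers summed to 100.5 to 145.2 CPM. Of these 8, PTPRC, MPO, AZU1 and CSF3R were at 3 counts or fewer and CD33 and SPI1 at 0 to 4 counts, while HOXA9 and MEIS1 were well detected, HOXA9 at a higher level than in OCI-AML3 cells (1.13 ± 0.08, adjusted p = 8.1e-12, DMSO 24 h). All 8 genes of an unfolded protein response check list, including DDIT3 and HSPA5, rose in each of the 3 tunicamycin comparisons (median log2 fold change 3.21 at 4 h and 2.38 at 24 h in OCI-AML3 cells, and 2.47 in HEK293T cells).

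Glycolysis splits 1 glucose molecule into pyruvate in the cytosol. Hexokinases trap the sugar, phosphofructokinase commits it to breakdown, and lactate dehydrogenase regenerates the cofactor that the pathway needs. In oxygenated cells the EGLN prolyl hydroxylases mark the hypoxia-inducible factors HIF1A and EPAS1 for destruction through VHL. When oxygen falls the factors persist, pair with ARNT and bind a short core motif in regulatory DNA, and most glycolytic genes are among their known targets. Neither oxygen, glucose nor factor protein was measured in these files.

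The core motif of that response is ACGTG or GCGTG, read on either strand. RefSeq promoters (GRCh38.p14, 250 bases before to 50 bases after each start) were found for 31 of the 35 genes. Of their 56 promoters, 38 (67.9%) held the motif, against 48.4% of 35116 promoters in the table. Counted by gene, 28 of 31 (90.3%) held it in at least 1 promoter, against 52.4% of 27305 symbols, and genes with several starts have more chances to hold it. A match is a string of letters and not a measured binding site, and matches on the 2 strands can overlap. The 250 bases before the start are given here for 6 genes with large changes over time in DMSO, 5′ to 3′ on the gene's strand, with the motif in capitals.
ALDOC: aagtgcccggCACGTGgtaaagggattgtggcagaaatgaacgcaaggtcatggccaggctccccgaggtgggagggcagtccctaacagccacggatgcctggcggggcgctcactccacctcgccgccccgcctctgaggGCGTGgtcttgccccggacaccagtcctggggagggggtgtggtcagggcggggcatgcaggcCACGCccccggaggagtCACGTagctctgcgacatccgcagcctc
PFKFB4: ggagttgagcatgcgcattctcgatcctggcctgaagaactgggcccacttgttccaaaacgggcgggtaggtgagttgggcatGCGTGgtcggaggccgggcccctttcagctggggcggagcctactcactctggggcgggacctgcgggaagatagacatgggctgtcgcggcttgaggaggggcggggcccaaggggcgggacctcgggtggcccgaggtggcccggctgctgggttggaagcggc
ENO2: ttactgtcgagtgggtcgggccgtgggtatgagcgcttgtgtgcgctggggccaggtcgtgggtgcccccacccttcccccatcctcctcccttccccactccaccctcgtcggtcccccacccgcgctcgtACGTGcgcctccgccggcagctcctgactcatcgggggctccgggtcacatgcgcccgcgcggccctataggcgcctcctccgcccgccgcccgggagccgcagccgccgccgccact
BNIP3: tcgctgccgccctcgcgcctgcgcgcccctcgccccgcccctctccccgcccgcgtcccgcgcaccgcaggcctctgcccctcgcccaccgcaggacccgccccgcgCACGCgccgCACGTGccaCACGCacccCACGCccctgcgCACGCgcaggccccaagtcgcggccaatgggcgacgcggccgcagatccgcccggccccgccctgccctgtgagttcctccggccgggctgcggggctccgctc
EGLN3: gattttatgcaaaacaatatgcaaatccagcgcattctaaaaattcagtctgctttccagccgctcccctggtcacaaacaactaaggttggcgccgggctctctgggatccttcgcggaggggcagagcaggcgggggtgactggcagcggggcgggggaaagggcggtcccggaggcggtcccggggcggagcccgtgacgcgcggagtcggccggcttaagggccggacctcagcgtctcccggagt
ADM: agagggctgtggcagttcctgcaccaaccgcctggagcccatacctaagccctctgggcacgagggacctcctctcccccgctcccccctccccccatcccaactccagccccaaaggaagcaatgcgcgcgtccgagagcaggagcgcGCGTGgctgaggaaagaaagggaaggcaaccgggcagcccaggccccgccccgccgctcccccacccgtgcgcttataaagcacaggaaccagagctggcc
These stretches lie at chr17:28576896-28577145 (minus strand), chr3:48556804-48557053 (minus), chr12:6914330-6914579 (plus), chr10:131981924-131982173 (minus), chr14:33951075-33951324 (minus) and chr11:10304823-10305072 (plus). ALDOC held 5 matches, at -240, -239, -108, -45 and -28 relative to the start, and BNIP3 held 6, between -143 and -104, of which those at -134 and -133 overlap as CACGTG. PFKFB4, ENO2 and ADM held 1 each, at -166, -118 and -101. EGLN3 held none in this window. The starts are those of RefSeq transcripts and need not be the outermost start of the gene model used for counting.

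Levels are given as CPM scaled by TMM, a trimmed mean factor for each library, with the replicates in the order 1, 2, 3 and with mean ± SD over n = 3 libraries. Differences are log2 fold changes with their standard error (SE) from edgeR's quasi-likelihood test, with p-values adjusted by Benjamini-Hochberg over the 14012 genes tested. A gene is said to have risen or fallen where the adjusted p did not exceed 0.05, and changes over 2-fold are named as such. Of the 35 genes, 33 had at least 1 CPM in at least 8 libraries and were tested. CA9 and ANGPTL4 were not tested. EGLN3 and ADM passed only through their 24 h libraries, so the counts below describe the genes that passed and are no test of the whole set. In bulk RNA, fewer cells with a transcript and less transcript per cell cannot be told apart.

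From 4 h to 24 h in DMSO, without tunicamycin, nearly the whole group went up in OCI-AML3 cells. Of the 33 genes tested, 32 rose and none fell, against 20.9% of all genes tested that rose and 21.7% that fell. PFKM, the muscle-type phosphofructokinase, was the exception (log2 fold change 0.0012 ± 0.07 SE, adjusted p = 0.99). In all 32 the 3 libraries at 24 h lay above the 3 libraries at 4 h, but the share of all genes tested that separated in this way was not counted. The rise exceeded 2-fold in 16 genes, against 3.48% of all genes (0.678% fell over 2-fold). The median log2 fold change of the 33 was 0.98, against -0.02 over all genes tested. The 21 glycolysis genes had a median of 0.84 and the 12 other hypoxia-inducible genes tested a median of 1.42. Without TMM scaling the median of all genes shifted by -0.12 in this comparison, and the median of the 33 was then 0.86. The share of all counts that fell in the 35 genes was 1.49% ± 0.101 at 4 h and 2.57% ± 0.0127 at 24 h.

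The first 4 h in DMSO showed no such change. Between untreated cells and DMSO at 4 h none of the 33 genes passed the test (0% of all genes rose and 0% fell by edgeR), their median log2 fold change was -0.0033, and the smallest adjusted p among them was 0.47. At an unadjusted p of at most 0.05 there were 1160 genes in all and 2 in the group, P4HA1 (-0.25) and NDRG1 (-0.16). limma voom also called no gene, while DESeq2 called 10 higher and 9 lower among all genes. This comparison and the one above share the DMSO 4 h libraries.

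With tunicamycin at 4 h a subset of the group fell by small amounts. Against DMSO at 4 h, 13 of 33 genes fell and 2 rose, SLC2A3 and MXI1, while 18.4% of all genes fell and 19% rose. Only SLC2A3 changed over 2-fold (3.51% of all genes rose and 1.45% fell over 2-fold). The median log2 fold change was -0.10 (all genes -0.01), with LDHA lowest at -0.55. Among the 21 glycolysis genes 10 fell and 1 rose. The DMSO 4 h replicate 1 library held more PGK1, TPI1, LDHA, ALDOA, GAPDH and HILPDA than replicates 2 and 3, and without it ALDOC, HILPDA, PGK1 and TPI1 no longer passed the test (log2 fold changes -0.22, -0.19, -0.12 and -0.076, adjusted p = 0.078, 0.1, 0.16 and 0.43). The number that fell was 8 without tunicamycin 4 h replicate 3 (ALDOC, PGK1, TPI1, PFKFB3 and P4HA2 lost) and also 8 with only the groups compared (ALDOC, HILPDA, PGK1, TPI1 and PFKFB3 lost). PFKFB3, with an adjusted p of 0.049, was lost in 5 of the 6 fits that left out 1 library, TPI1 in 4, ALDOC in 3, HK2 and PGK1 in 2 each and P4HA2 and HILPDA in 1 each. SLC2A1, PFKM, PFKP, PGAM1, LDHA and BNIP3 kept their call in all 6. With limma voom PFKFB3 and TPI1 were lost (0.063 and 0.051).

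Tunicamycin at 24 h was accompanied by lower levels of most of the pathway. Against DMSO at 24 h, 22 of 33 genes fell and 2 rose, P4HA1 and NDRG1, while 23.9% of all genes fell and 27.2% rose. The median log2 fold change was -0.53 (all genes 0.04). Of the 21 glycolysis genes 19 fell and none rose, with a median of -0.64; SLC2A3 and HK1 did not pass the test. Of the 12 other hypoxia-inducible genes 3 fell and 2 rose, with a median of -0.04. ALDOC, ENO2 and BNIP3 fell over 2-fold (1.89% of all genes fell and 4.65% rose over 2-fold). Calls lost when 1 library was left out were those of ADM, PDK1, PFKFB3 (without DMSO replicate 1 or tunicamycin replicate 2, adjusted p = 0.1 and 0.053) and PKM (without tunicamycin replicate 3, 0.062). In 23 genes the 3 tunicamycin libraries lay below the 3 DMSO libraries, and in 2 above. How many of all genes tested separated in this way was not counted. The comparison shares its DMSO 24 h libraries with the comparison over time, so the 2 sets of values stand side by side and are not 2 independent results.

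HEK293T cells showed smaller shifts after 24 h of tunicamycin. Here 16 of 33 genes fell and 3 rose (P4HA1, PDK1 and MXI1), while 13% of all genes fell and 12.7% rose. The median log2 fold change was -0.24 (all genes -0.0051). Of the 21 glycolysis genes 15 fell and 1 rose, with a median of -0.34, and of the 12 others 1 fell, EGLN3, and 2 rose, with a median of 0.02. ALDOC alone fell over 2-fold (0.55% of all genes fell and 1.58% rose over 2-fold), and without HEK293T DMSO 24 h replicate 1 the number was 0. The rises of PDK1 and MXI1 were close to the threshold (adjusted p = 0.042 and 0.025), and each was lost without TMM scaling. MXI1 was also lost in all 6 fits that left out 1 library (adjusted p = 0.052 to 0.087) and PDK1 in 4 of them (0.094 to 0.17), which leaves P4HA1 as the 1 rise that held in each. The falls of GAPDH, PFKFB4 and EGLN3 were lost in 3, 2 and 1 of the 6 (GAPDH 0.075, 0.054 and 0.08).

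**Figure D1:**
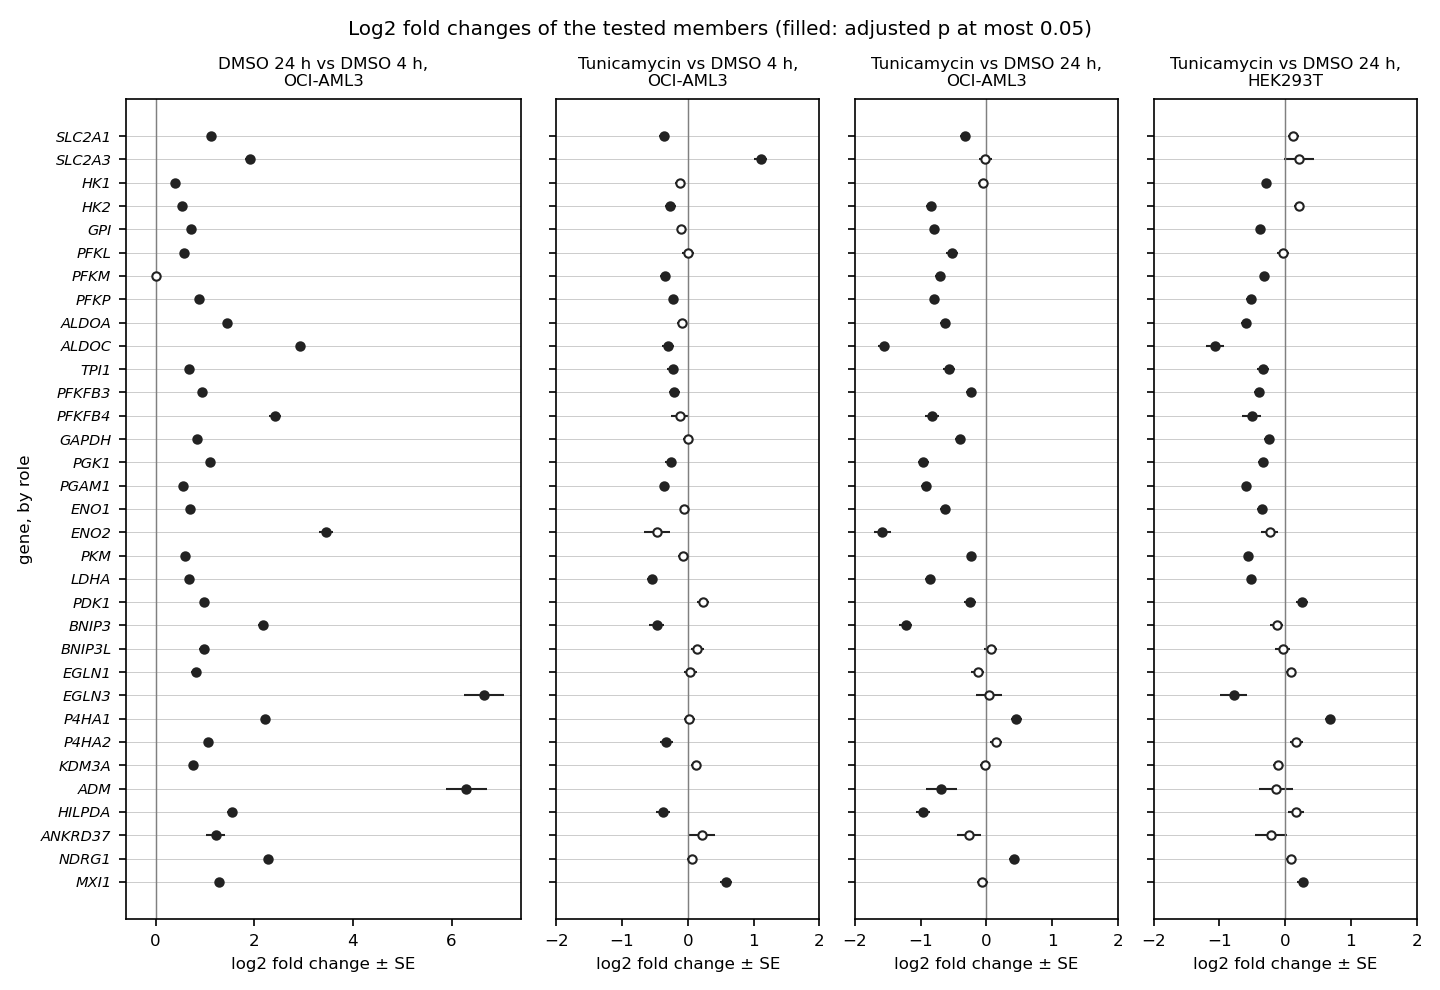
Log2 fold changes ± SE (x axis) of the 33 tested genes (y axis, by role) in the comparison over time in DMSO and the 3 tunicamycin comparisons, n = 3 libraries per group, with filled points where the adjusted p did not exceed 0.05. Nearly all points of the first panel lie right of 0, and most points of the third lie left of it. EGLN3 and ADM are left out of the 4 h tunicamycin panel, where both groups were near 0 counts, and their fitted values in the first panel depend on the model's prior count. The scale of the first panel differs from the others.

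**Figure D2:**
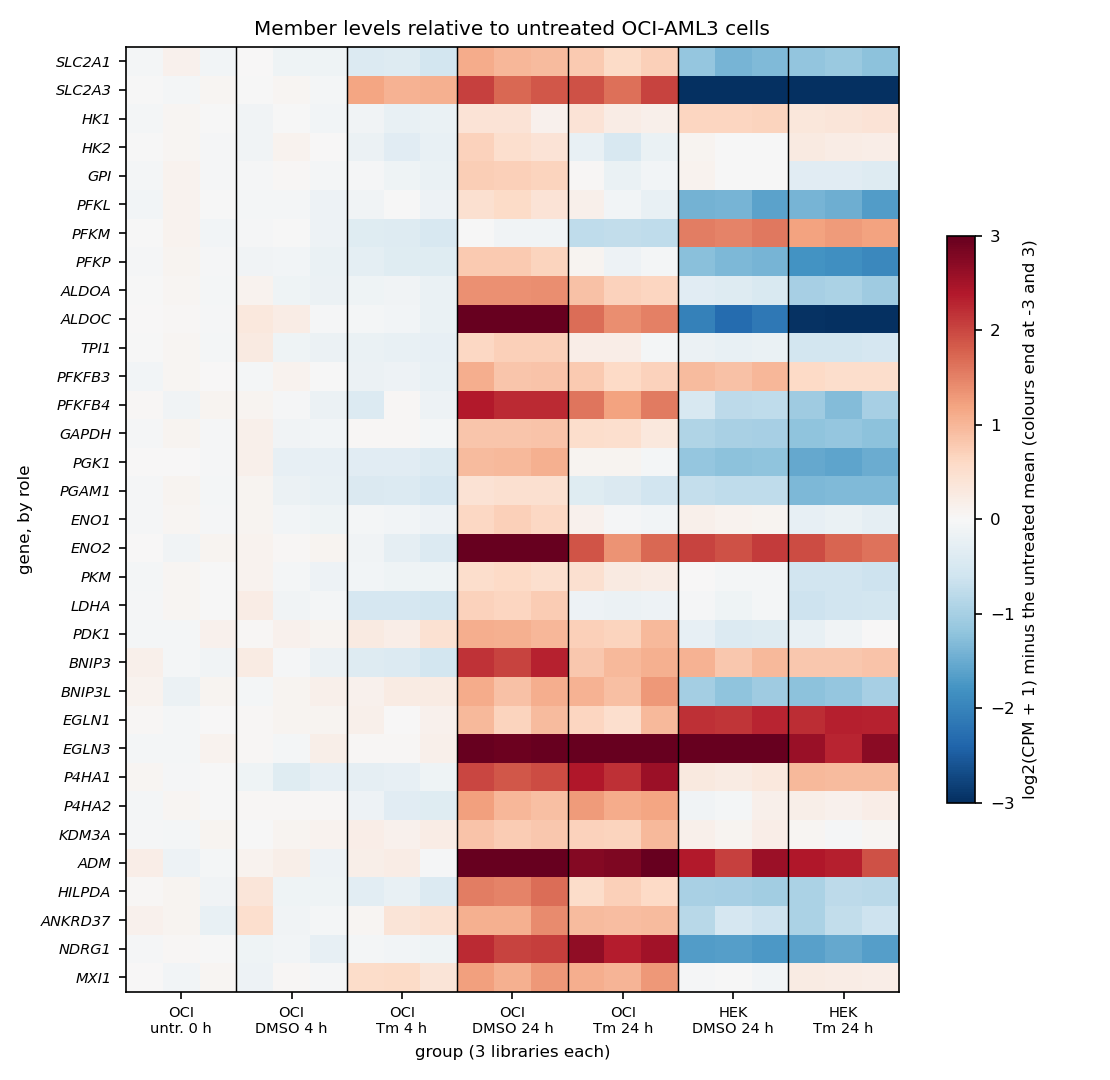
Level of each tested gene (rows, by role) in each of the 21 libraries (columns, 3 per group) as log2(CPM + 1) minus the mean of the untreated OCI-AML3 libraries, with colours that end at -3 and 3. The DMSO 24 h libraries are red in all rows but PFKM. The tunicamycin 24 h libraries are paler than these in most glycolysis rows and darker in NDRG1 and P4HA1. The HEK293T libraries differ by gene.

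Glucose enters through facilitative transporters, of which SLC2A1 (GLUT1, chr1:42925353-42958893, minus strand) is the widespread basal form. SLC2A1 was at 121, 140.5 and 121 CPM in untreated cells, 129, 116 and 116 CPM in DMSO 4 h and 95.1, 97.2 and 87.2 CPM in tunicamycin 4 h. At 24 h its levels were 278, 257 and 247 CPM with DMSO and 220.5, 190.1 and 211 CPM with tunicamycin. The groups did not overlap in any of the 3 OCI-AML3 comparisons. SLC2A1 rose over time 2.17-fold (log2 fold change 1.12 ± 0.08 SE, adjusted p = 2.5e-10) and fell with tunicamycin at both times, 1.29-fold (log2 fold change -0.36 ± 0.08 SE, adjusted p = 0.00083) at 4 h and 1.26-fold (log2 fold change -0.33 ± 0.08 SE, adjusted p = 0.0012) at 24 h. HEK293T libraries held 56.5, 47.6 and 50.3 CPM with DMSO and 55.7, 58.6 and 54.1 CPM with tunicamycin, which overlapped (log2 fold change 0.13 ± 0.08 SE, adjusted p = 0.28).

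SLC2A3 (GLUT3, chr12:7919230-8019007, minus strand), a transporter with high affinity for glucose, was the 1 gene of the group that rose over 2-fold with tunicamycin at 4 h. Its levels were 53.3, 51.6 and 55.6 CPM in untreated cells, 53, 56.2 and 51 CPM in DMSO 4 h and 122, 111 and 112 CPM in tunicamycin 4 h, a rise of 2.16-fold (log2 fold change 1.11 ± 0.10 SE, adjusted p = 1.2e-08) with no overlap. At 24 h they were 225, 179 and 199 CPM with DMSO and 204, 171 and 220.0 CPM with tunicamycin. The 24 h groups overlapped (log2 fold change -0.02 ± 0.10 SE, adjusted p = 0.9), and both lay above all libraries taken at 4 h, with a rise over time in DMSO of 3.76-fold (log2 fold change 1.91 ± 0.10 SE, adjusted p = 2.9e-12). The share of SLC2A3 in the summed level of both transporters (CPM per kb of transcript) was 28.3% ± 1.67 in DMSO 4 h, 52.2% ± 1.73 in tunicamycin 4 h, 40.5% ± 2.02 in DMSO 24 h and 45.7% ± 1.98 in tunicamycin 24 h.

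In HEK293T cells SLC2A3 was scarce, at 1.8, 1.61 and 2.47 CPM with DMSO and 2.68, 2.51 and 1.54 CPM with tunicamycin (35, 30 and 54 counts against 53, 46 and 23). Among the 35 genes SLC2A3 had the largest share of reads in its own annotated pseudogenes. Of the reads counted for SLC2A3 or these pseudogenes, 46.4 to 60.2% lay in the pseudogenes in HEK293T DMSO libraries and 0 to 67.1% in HEK293T tunicamycin libraries, so its level in that line is uncertain. In OCI-AML3 libraries the share was at most 3.64%.

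Hexokinases phosphorylate glucose and so trap it in the cell. HK1 (chr10:69269984-69401884, plus strand), bound to mitochondria and present in most tissues, was at 77.1, 83.2 and 79.8 CPM in untreated cells, 74.7, 79.5 and 75.8 CPM in DMSO 4 h and 74, 68.8 and 69.3 CPM in tunicamycin 4 h. The 24 h levels were 107, 106 and 87.5 CPM with DMSO and 107, 93.1 and 89.2 CPM with tunicamycin, and these 2 groups overlapped. HK1 rose over time 1.31-fold (log2 fold change 0.39 ± 0.08 SE, adjusted p = 0.00028) and did not pass the test with tunicamycin (log2 fold change -0.12 ± 0.08 SE, adjusted p = 0.24 at 4 h; log2 fold change -0.06 ± 0.08 SE, adjusted p = 0.54 at 24 h). The highest levels were in HEK293T cells with DMSO, 126, 126 and 127 CPM against 102, 104 and 106 CPM with tunicamycin, without overlap, and there HK1 fell 1.22-fold (log2 fold change -0.28 ± 0.07 SE, adjusted p = 0.0064).

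HK2, the inducible isozyme, responded differently in the 2 lines. In OCI-AML3 cells it was at 114 ± 8.66 CPM in DMSO 4 h, 164 ± 16.2 CPM in DMSO 24 h and 91 ± 9.84 CPM in tunicamycin 24 h, and it fell 1.79-fold (log2 fold change -0.84 ± 0.08 SE, adjusted p = 1.6e-08) at 24 h. In HEK293T cells it was at 114 ± 3.69 CPM with DMSO and 132 ± 3.77 CPM with tunicamycin, without overlap (log2 fold change 0.21 ± 0.08 SE, adjusted p = 0.055; the adjusted p was 0.045 with limma voom, 0.044 with DESeq2 and 0.00044 with only the groups compared, and between 0.054 and 0.16 in the other alternatives). The difference between the lines was 1.05 ± 0.11 SE, adjusted p = 5e-07. The share of HK2 in both hexokinases went from 51.1% ± 1.85 to 37.6% ± 3.15 with tunicamycin at 24 h in OCI-AML3 cells and from 36.6% ± 0.783 to 44.9% ± 1.26 in HEK293T cells.

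The first stage of the pathway isomerises, phosphorylates and splits the sugar. Of its 7 enzymes, 6 rose over time in DMSO (log2 fold changes 0.58 to 2.93), against 20.9% of all genes tested. With tunicamycin 4 fell at 4 h, all 7 fell at 24 h (-1.56 to -0.53) and 6 fell in HEK293T cells. The shares of all genes that fell were 18.4%, 23.9% and 13%. PFKL was the exception in HEK293T cells (log2 fold change -0.04 ± 0.09 SE, adjusted p = 0.82). The falls of ALDOC and TPI1 at 4 h were lost in some of the fits given above. GPI, the isomerase, was at 328 ± 10.9 CPM in DMSO 4 h, 542 ± 15.8 CPM in DMSO 24 h and 313 ± 26.8 CPM in tunicamycin 24 h. TPI1, which interconverts the triose phosphates, was at 1149.5 ± 203, 1841 ± 72.2 and 1243 ± 128 CPM in the same groups. In tunicamycin 24 h both stood closer to their DMSO 4 h level than to their DMSO 24 h level, a comparison that was not tested.

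Phosphofructokinase is made from 3 genes, PFKL, PFKM and PFKP. In DMSO at 4 h the liver-type PFKL made up 59.9% ± 0.199 of their summed level per kb, the platelet-type PFKP 34.9% ± 0.237 and PFKM 5.2% ± 0.0502. At 24 h PFKP made up 40.3% ± 0.708 and PFKM 3.29% ± 0.212. With tunicamycin at 24 h PFKP fell 1.73-fold (log2 fold change -0.79 ± 0.06 SE, adjusted p = 1.5e-09), PFKM 1.63-fold (log2 fold change -0.71 ± 0.07 SE, adjusted p = 5.8e-08) and PFKL 1.44-fold (log2 fold change -0.53 ± 0.09 SE, adjusted p = 3.8e-05). HEK293T cells used a different mixture, with PFKM at 30.% ± 2.04 of the sum in DMSO.

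Aldolase splits fructose-1,6-bisphosphate. ALDOA (chr16:30064164-30070457, plus strand), the abundant form, was at 1089, 1153 and 1065 CPM in untreated cells, 1184, 1004 and 971 CPM in DMSO 4 h and 1010.4, 1025 and 953 CPM in tunicamycin 4 h. By 24 h ALDOA stood at 2841, 2829 and 2901 CPM with DMSO and 2039.7, 1776 and 1712 CPM with tunicamycin. The 4 h groups overlapped, while the DMSO 24 h libraries lay above all others. ALDOA rose over time 2.71-fold (log2 fold change 1.44 ± 0.08 SE, adjusted p = 2.4e-12), and fell with tunicamycin 1.55-fold (log2 fold change -0.63 ± 0.08 SE, adjusted p = 5.2e-07) at 24 h. In HEK293T cells it was at 870.1, 838 and 802 CPM with DMSO and 556, 574 and 528 CPM with tunicamycin, a fall of 1.51-fold (log2 fold change -0.60 ± 0.08 SE, adjusted p = 3e-06) without overlap.

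ALDOC (chr17:28573115-28576948, minus strand), the form best known from brain, was far scarcer and fell in all 3 tunicamycin comparisons, at 4 h with the losses given above. ALDOC was at 36.2, 36.5 and 34.7 CPM in untreated cells, 45, 42.2 and 35 CPM in DMSO 4 h and 34.3, 34 and 31.1 CPM in tunicamycin 4 h. At 24 h it reached 328, 296 and 308 CPM with DMSO and 117, 95.5 and 104 CPM with tunicamycin. Tunicamycin and DMSO did not overlap at either time, and all tunicamycin 24 h libraries lay between those of DMSO 4 h and DMSO 24 h. The rise over time was 7.64-fold (log2 fold change 2.93 ± 0.09 SE, adjusted p = 1.3e-16), and the falls with tunicamycin were 1.23-fold (log2 fold change -0.29 ± 0.09 SE, adjusted p = 0.014) at 4 h and 2.95-fold (log2 fold change -1.56 ± 0.08 SE, adjusted p = 1.1e-12) at 24 h. HEK293T cells held far less, 8.06, 6.43 and 7.32 CPM with DMSO and 3.69, 3.49 and 3.23 CPM with tunicamycin, a fall of 2.09-fold (log2 fold change -1.06 ± 0.14 SE, adjusted p = 3.5e-06) without overlap. ALDOC made up 3.8% ± 0.29 of both aldolases per kb in DMSO 4 h, 9.99% ± 0.491 in DMSO 24 h and 5.51% ± 0.319 in tunicamycin 24 h. The gene shares its locus with RSKR on the same strand.

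The bifunctional enzymes PFKFB3 and PFKFB4 set the level of fructose-2,6-bisphosphate, the strongest activator of phosphofructokinase. PFKFB4 (chr3:48517684-48562015, minus strand) was at 14.1, 12.7 and 14.5 CPM in untreated cells, 14.6, 13.4 and 12 CPM in DMSO 4 h and 10.2, 14 and 12.4 CPM in tunicamycin 4 h, which overlapped. At 24 h it was at 75.2, 68.5 and 68.4 CPM with DMSO and 43.6, 33 and 42.8 CPM with tunicamycin, without overlap. PFKFB4 rose over time 5.32-fold (log2 fold change 2.41 ± 0.12 SE, adjusted p = 8.8e-13) and fell with tunicamycin at 24 h 1.78-fold (log2 fold change -0.83 ± 0.11 SE, adjusted p = 2.5e-06). HEK293T libraries held 9.49, 7.61 and 7.63 CPM with DMSO and 6.07, 4.96 and 6.38 CPM with tunicamycin, a fall without overlap (log2 fold change -0.51 ± 0.15 SE, adjusted p = 0.014) that was lost without DMSO 24 h replicate 1 (adjusted p = 0.087) or tunicamycin 24 h replicate 2 (0.086). PFKFB3 moved less over time (0.94 ± 0.08, from 35.5 ± 2.02 to 68.1 ± 6.91 CPM), so that PFKFB4 went from 32.5% ± 2.66 to 57.1% ± 1.11 of the pair per kb, and stood at 46.8% ± 2.6 in tunicamycin 24 h. PFKFB4 overlaps UCN2 on the same strand.

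The second stage of the pathway harvests the energy. All 6 of its genes rose over time, against 20.9% of all genes tested. With tunicamycin 2 fell at 4 h (PGK1 and PGAM1), all 6 fell at 24 h, and 5 fell in HEK293T cells, ENO2 not passing the test. The shares of all genes that fell were 18.4%, 23.9% and 13%. Of these calls, those of PGK1 at 4 h, PKM at 24 h and GAPDH in HEK293T cells depended on single libraries, as given above. The fall of PKM at 24 h was also lost with only the groups compared (-0.26, adjusted p = 0.071). GAPDH, often used as a control transcript, was among the 6 genes. It was at 4654, 3896 and 3931 CPM in DMSO 4 h, 7483, 7398 and 7522 CPM in DMSO 24 h and 5988, 5883 and 5156 CPM in tunicamycin 24 h. GAPDH thus rose over time 1.79-fold (log2 fold change 0.84 ± 0.08 SE, adjusted p = 1.3e-08) and fell with tunicamycin 1.32-fold (log2 fold change -0.40 ± 0.08 SE, adjusted p = 0.00016), with no overlap in either case, and in tunicamycin 4 h it was at 4305, 4246 and 4003 CPM, within the range of DMSO 4 h. Per kb of transcript GAPDH was the most abundant of the 35 genes in all 7 groups (5811 ± 49.4 CPM per kb in DMSO 24 h), followed by ENO1 (1783 ± 61.7).

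PGK1 (chrX:77910739-78129295, plus strand), which makes the first ATP of the pathway, was at 1086, 1100.1 and 1065 CPM in untreated cells, 1195, 909 and 909 CPM in DMSO 4 h and 856, 849.5 and 812 CPM in tunicamycin 4 h. DMSO 4 h replicate 1 stood above the other two, and the fall at 4 h (log2 fold change -0.26 ± 0.08 SE, adjusted p = 0.015) was lost without it. At 24 h PGK1 was at 2097, 2122 and 2285 CPM with DMSO and 1145, 1150.3 and 1042 CPM with tunicamycin. The rise over time was 2.16-fold (log2 fold change 1.11 ± 0.08 SE, adjusted p = 5.5e-10) and the fall at 24 h 1.95-fold (log2 fold change -0.96 ± 0.08 SE, adjusted p = 2.5e-09), neither with overlap. HEK293T levels were 488, 461 and 466 CPM with DMSO and 374, 362 and 386 CPM with tunicamycin, a fall of 1.26-fold (log2 fold change -0.34 ± 0.08 SE, adjusted p = 0.0039). PGAM1, the next enzyme, fell at both times (log2 fold changes -0.36 and -0.92) and in HEK293T cells (-0.59).

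ENO2 (chr12:6913745-6923698, plus strand), the enolase known as the neuronal form, was scarce at first. It was at 3.06, 2.73 and 3.23 CPM in untreated cells, 3.31, 3.12 and 3.25 CPM in DMSO 4 h and 2.69, 2.31 and 2.0 CPM in tunicamycin 4 h. At 24 h ENO2 was at 40.3, 33 and 32.8 CPM with DMSO and 13.8, 9.24 and 12.3 CPM with tunicamycin. The rise over time was 10.9-fold (log2 fold change 3.45 ± 0.15 SE, adjusted p = 4.9e-14), the largest among members with more than 10 counts in every library, and the fall with tunicamycin was 2.99-fold (log2 fold change -1.58 ± 0.13 SE, adjusted p = 1.1e-09), both without overlap. At 4 h the tunicamycin libraries lay below the DMSO libraries, but the difference did not pass the test (log2 fold change -0.46 ± 0.20 SE, adjusted p = 0.073). In HEK293T cells ENO2 was at 15.3, 13.9 and 16.1 CPM with DMSO and 14.6, 12.4 and 11.3 CPM with tunicamycin, which overlapped (log2 fold change -0.24 ± 0.13 SE, adjusted p = 0.19). ENO1 supplied nearly all enolase transcript throughout, with ENO2 at 0.128% ± 0.0083 of both per kb in DMSO 4 h, 0.859% ± 0.123 in DMSO 24 h and 0.445% ± 0.0749 in tunicamycin 24 h. Strand use in counting is not given in the sources used here, and ENO2 overlaps LRRC23.

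Pyruvate is reduced to lactate by LDHA, and the kinase PDK1 restrains its oxidation in the mitochondrion. LDHA (chr11:18394560-18408425, plus strand) was at 973, 1034 and 983 CPM in untreated cells, 1166, 924 and 960.4 CPM in DMSO 4 h and 703, 702 and 684 CPM in tunicamycin 4 h. The later libraries held 1606, 1550.2 and 1694 CPM with DMSO and 889.5, 889 and 893 CPM with tunicamycin. Tunicamycin libraries lay below DMSO libraries at both times, and LDHA fell 1.46-fold (log2 fold change -0.55 ± 0.07 SE, adjusted p = 1.8e-06) at 4 h and 1.82-fold (log2 fold change -0.86 ± 0.07 SE, adjusted p = 1.5e-09) at 24 h after a rise over time in DMSO of 1.59-fold (log2 fold change 0.67 ± 0.07 SE, adjusted p = 1.4e-07). In HEK293T cells it fell 1.43-fold (log2 fold change -0.51 ± 0.07 SE, adjusted p = 8.5e-06), from 976, 909.6 and 952 CPM to 647, 667 and 675 CPM. PDK1 did not pass the test at 4 h (log2 fold change 0.23 ± 0.09 SE, adjusted p = 0.051), fell slightly at 24 h in OCI-AML3 cells (log2 fold change -0.25 ± 0.09 SE, adjusted p = 0.019) and rose in HEK293T cells (log2 fold change 0.26 ± 0.09 SE, adjusted p = 0.042). The fall at 24 h was lost without DMSO replicate 1, tunicamycin replicate 1 or tunicamycin replicate 2 (adjusted p = 0.062, 0.07 and 0.09) and without TMM scaling (0.068). The rise in HEK293T cells was lost without DMSO replicate 2 or 3 (0.14 and 0.12), tunicamycin replicate 2 or 3 (0.094 and 0.17) or TMM scaling (0.12).

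**Figure D3:**
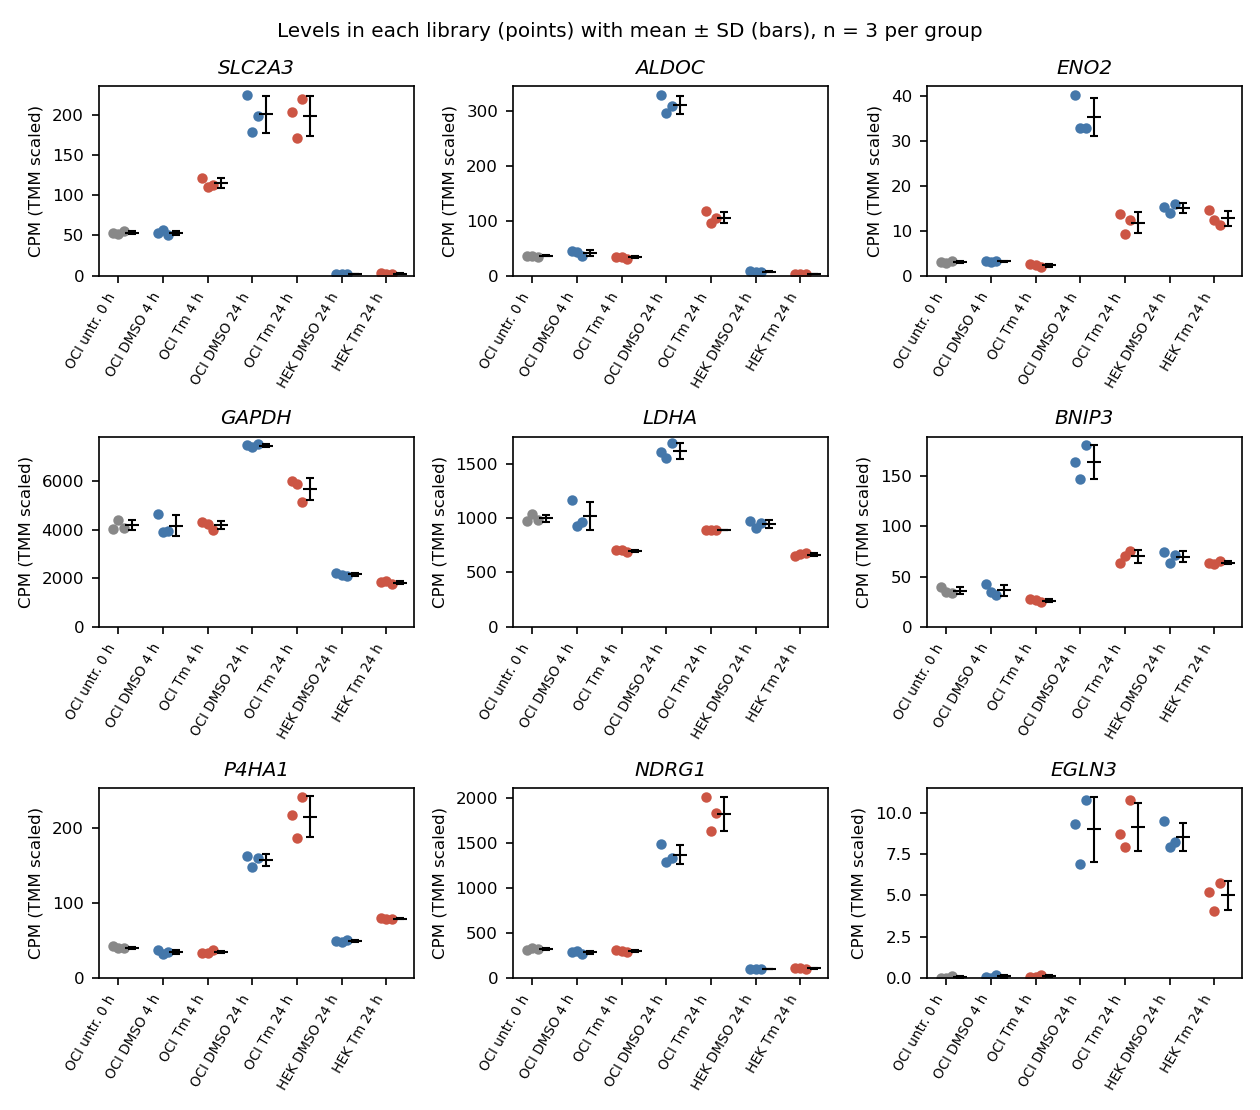
CPM (y axis, from 0) of 9 genes in each library (points, 3 per group), with mean ± SD beside them, in grey for untreated, blue for DMSO and red for tunicamycin. ALDOC, ENO2, LDHA and BNIP3 are highest in DMSO 24 h, P4HA1 and NDRG1 are highest in tunicamycin 24 h, SLC2A3 is raised in tunicamycin 4 h, and EGLN3 is near 0 in the untreated and 4 h groups.

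BNIP3 and BNIP3L are outer mitochondrial membrane receptors that recruit the autophagy machinery to mitochondria. BNIP3 (chr10:131967684-131981967, minus strand) was at 39.9, 34.4 and 33.1 CPM in untreated cells, 42.6, 34.6 and 31.6 CPM in DMSO 4 h and 27.2, 26.7 and 24.2 CPM in tunicamycin 4 h. After 24 h BNIP3 was at 164, 148 and 182 CPM with DMSO and 63.1, 71 and 76 CPM with tunicamycin. It rose over time 4.54-fold (log2 fold change 2.18 ± 0.10 SE, adjusted p = 3.1e-13), and with tunicamycin it fell 1.39-fold (log2 fold change -0.47 ± 0.11 SE, adjusted p = 0.0014) at 4 h and 2.35-fold (log2 fold change -1.23 ± 0.10 SE, adjusted p = 1.3e-09) at 24 h, with no overlap in any of the 3. HEK293T libraries held 74.6, 63.7 and 71 CPM with DMSO and 63.1, 63 and 65.8 CPM with tunicamycin, which overlapped (log2 fold change -0.13 ± 0.10 SE, adjusted p = 0.39). BNIP3L also rose over time (log2 fold change 0.97 ± 0.10 SE, adjusted p = 1e-07), and its groups with and without tunicamycin overlapped in all 3 comparisons (log2 fold changes 0.14, 0.06 and -0.04, adjusted p = 0.28, 0.61 and 0.85). The share of BNIP3 in the pair went from 51.3% ± 5.7 in DMSO 4 h to 71% ± 1.2 in DMSO 24 h, and was 50.1% ± 3.05 in tunicamycin 24 h.

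The prolyl hydroxylases EGLN1 and EGLN3 sense oxygen and are themselves induced when it falls. EGLN3 (chr14:33924227-34462774, minus strand) was at or near 0 until 24 h: 0, 0 and 2 counts in the untreated libraries, 1, 0 and 3 counts in DMSO 4 h and 1, 1 and 2 counts in tunicamycin 4 h. In DMSO 24 h the libraries held 133, 106 and 144 counts (9.33, 6.9 and 10.8 CPM), and in tunicamycin 24 h 123, 106 and 195 counts (8.76, 7.96 and 10.8 CPM). The 24 h groups overlapped each other (log2 fold change 0.04 ± 0.20 SE, adjusted p = 0.89) and lay far above all 4 h libraries. Over time in DMSO the summed counts went from 4 to 383, a ratio per counted read of 109.8 (95% exact interval 42.5 to 405, counting error only), with an adjusted p of 2.3e-11. With tunicamycin the corresponding counts were 4 and 424. In HEK293T cells EGLN3 was at 9.55, 7.93 and 8.23 CPM with DMSO and 5.21, 4.03 and 5.78 CPM with tunicamycin, a fall of 1.72-fold (log2 fold change -0.78 ± 0.21 SE, adjusted p = 0.0074) without overlap; without tunicamycin 24 h replicate 2 the adjusted p was 0.054. EGLN1 rose over time (log2 fold change 0.83 ± 0.10 SE, adjusted p = 1.2e-06) and did not pass the test in any of the 3 tunicamycin comparisons. Without OCI-AML3 tunicamycin 24 h replicate 3, however, EGLN1 fell at 24 h (log2 fold change -0.29, adjusted p = 0.015, against -0.13 and 0.26 with all libraries). EGLN3 made up 0.617% ± 0.663 of the pair per kb in DMSO 4 h and 28.8% ± 2.56 in DMSO 24 h.

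P4HA1 and P4HA2 are the catalytic subunits of the ER enzymes that hydroxylate collagen. P4HA1 (chr10:73007217-73096974, minus strand) was at 41.6, 39 and 39.6 CPM in untreated cells, 36.6, 31.1 and 33.7 CPM in DMSO 4 h and 33.2, 33.4 and 36.4 CPM in tunicamycin 4 h, the last 2 overlapping (log2 fold change 0.02 ± 0.08 SE, adjusted p = 0.86). At 24 h it was at 163, 148 and 159 CPM with DMSO and 217, 186 and 241 CPM with tunicamycin. P4HA1 rose over time 4.63-fold (log2 fold change 2.21 ± 0.08 SE, adjusted p = 4e-15) and, unlike the glycolysis genes, rose again with tunicamycin at 24 h, 1.37-fold (log2 fold change 0.46 ± 0.08 SE, adjusted p = 3.7e-05), without overlap. In HEK293T cells it went from 49.4, 47.5 and 50. CPM to 79.2, 78.4 and 78 CPM, a rise of 1.6-fold (log2 fold change 0.68 ± 0.08 SE, adjusted p = 8.5e-07). It was the 1 gene of the 33 that rose with tunicamycin at 24 h in both lines, and the 2 responses did not pass the test of a difference (0.22 ± 0.11 SE, adjusted p = 0.14). Without OCI-AML3 tunicamycin 24 h replicate 3 this difference did pass (0.32, adjusted p = 0.029).

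P4HA2 (chr5:132190147-132295315, minus strand) was at 16.2, 17.6 and 16.8 CPM in untreated cells, 17.2, 17.2 and 17.2 CPM in DMSO 4 h and 15.1, 13.2 and 12.9 CPM in tunicamycin 4 h. The 24 h libraries held 41, 35 and 32.4 CPM with DMSO and 42.1, 37.7 and 39.9 CPM with tunicamycin. It rose over time 2.1-fold (log2 fold change 1.07 ± 0.09 SE, adjusted p = 1e-08). With tunicamycin at 4 h it fell 1.26-fold (log2 fold change -0.33 ± 0.10 SE, adjusted p = 0.013), a call lost without tunicamycin 4 h replicate 3 (adjusted p = 0.056). At 24 h it did not pass the test (log2 fold change 0.14 ± 0.09 SE, adjusted p = 0.19), and the groups overlapped. Without DMSO 24 h replicate 1 it rose there (log2 fold change 0.24, adjusted p = 0.035). HEK293T libraries held 15.7, 16.1 and 19 CPM with DMSO and 19.2, 18.6 and 19.4 CPM with tunicamycin (log2 fold change 0.17 ± 0.10 SE, adjusted p = 0.2). KDM3A (chr2:86440647-86492716, plus strand), a histone H3K9 demethylase, was at 52.3, 51.5 and 56.6 CPM in untreated cells, 53.4, 56.6 and 57.3 CPM in DMSO 4 h, 61.5, 58.2 and 62.6 CPM in tunicamycin 4 h, 98.2, 91 and 94.4 CPM in DMSO 24 h and 86.9, 86.2 and 105 CPM in tunicamycin 24 h. KDM3A rose over time 1.69-fold (log2 fold change 0.76 ± 0.07 SE, adjusted p = 5e-08) and passed none of the 3 tunicamycin tests. Its HEK293T levels were 59.4, 56.5 and 61.1 CPM with DMSO and 55.8, 51.9 and 56 CPM with tunicamycin.

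ADM (chr11:10305073-10307397, plus strand) encodes the secreted peptide adrenomedullin, which widens vessels. Its libraries held 5, 0 and 1 counts in untreated cells, 3, 4 and 0 counts in DMSO 4 h and 4, 5 and 1 counts in tunicamycin 4 h. At 24 h the levels were 13.2, 9.7 and 12.5 CPM with DMSO and 6.48, 6.68 and 8.7 CPM with tunicamycin. Over time in DMSO the summed counts went from 7 to 504, a ratio per counted read of 82.6 (95% exact interval 39.8 to 206.5, counting error only), with an adjusted p of 1.1e-10. ADM fell with tunicamycin at 24 h (log2 fold change -0.69 ± 0.24 SE, adjusted p = 0.02), without overlap, and this call was lost in 4 of the 6 fits that left out 1 library of these groups. HEK293T libraries held 4.72, 3.59 and 5.53 CPM with DMSO and 4.8, 4.58 and 3.16 CPM with tunicamycin, which overlapped.

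CA9, the membrane carbonic anhydrase that buffers acid outside hypoxic cells, was not detectable as changed at this depth. Its libraries held 0 to 3 counts in every group: 3, 2 and 1 in DMSO 24 h, 1, 3 and 0 in tunicamycin 24 h, 1, 3 and 0 in untreated cells, 2, 0 and 0 in DMSO 4 h and 0 in all tunicamycin 4 h and HEK293T libraries. ANGPTL4, a secreted inhibitor of lipoprotein lipase, held 0 to 6 counts, with 4, 6 and 2 in DMSO 24 h and 4, 2 and 5 in tunicamycin 24 h. Both are counted among the 35 genes and enter no test.

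HILPDA (chr7:128455849-128458418, plus strand) coats lipid droplets and blocks the breakdown of stored fat. It was at 32.1, 32.9 and 28.8 CPM in untreated cells, 40.5, 28.5 and 28.4 CPM in DMSO 4 h and 24.9, 26.4 and 23.4 CPM in tunicamycin 4 h. After 24 h HILPDA stood at 91.7, 89 and 103 CPM with DMSO and 46.4, 51.5 and 47.5 CPM with tunicamycin. HILPDA rose over time 2.91-fold (log2 fold change 1.54 ± 0.10 SE, adjusted p = 1.5e-10) and fell with tunicamycin 1.95-fold (log2 fold change -0.96 ± 0.10 SE, adjusted p = 8.3e-08) at 24 h, without overlap, and its fall at 4 h (log2 fold change -0.38 ± 0.11 SE, adjusted p = 0.0084) rested on DMSO 4 h replicate 1. HEK293T levels were 15.5, 15.1 and 14.6 CPM with DMSO and 15.6, 17.8 and 17.3 CPM with tunicamycin, slightly higher in every tunicamycin library (log2 fold change 0.17 ± 0.12 SE, adjusted p = 0.32).

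ANKRD37 (chr4:185396021-185400628, plus strand), a small ankyrin repeat protein, was at 4.11, 3.96 and 3.01 CPM in untreated cells, 5.59, 3.38 and 3.47 CPM in DMSO 4 h, 3.88, 5.14 and 5.36 CPM in tunicamycin 4 h, 8.77, 8.72 and 11.4 CPM in DMSO 24 h and 8.04, 7.81 and 8.09 CPM in tunicamycin 24 h. It rose over time 2.33-fold (log2 fold change 1.22 ± 0.19 SE, adjusted p = 3.1e-05) and passed no tunicamycin test. In HEK293T cells it was at 1.64, 2.3 and 2.06 CPM with DMSO and 1.42, 1.8 and 2.02 CPM with tunicamycin. MXI1 (chr10:110207605-110287365, plus strand), a repressor that opposes MYC, was at 27.5, 25.3 and 28.4 CPM in untreated cells, 24.1, 27.6 and 26.2 CPM in DMSO 4 h and 40.4, 40.5 and 35.5 CPM in tunicamycin 4 h, a rise with tunicamycin of 1.49-fold (log2 fold change 0.58 ± 0.09 SE, adjusted p = 1.4e-05) without overlap. At 24 h MXI1 was at 65.1, 57.6 and 68.4 CPM with DMSO and 58.9, 55.8 and 68.1 CPM with tunicamycin, which overlapped, after a rise over time of 2.45-fold (log2 fold change 1.29 ± 0.09 SE, adjusted p = 1.1e-10). HEK293T libraries held 26.4, 26.6 and 25.6 CPM with DMSO and 32.1, 31.6 and 31 CPM with tunicamycin.

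NDRG1 (chr8:133237175-133302022, minus strand), a stress-responsive cytoplasmic protein linked to growth arrest, was at 309, 326 and 314 CPM in untreated cells, 287, 298 and 266 CPM in DMSO 4 h and 302, 300.0 and 289 CPM in tunicamycin 4 h. At 24 h it was at 1487, 1282 and 1333 CPM with DMSO and 2008, 1624 and 1824 CPM with tunicamycin. All tunicamycin 24 h libraries lay above all others, and NDRG1 rose over time 4.82-fold (log2 fold change 2.27 ± 0.08 SE, adjusted p = 5.9e-16) and rose with tunicamycin at 24 h 1.33-fold (log2 fold change 0.41 ± 0.07 SE, adjusted p = 6.3e-05). HEK293T libraries contained 98.1, 99.7 and 94.7 CPM with DMSO and 102, 108 and 99.6 CPM with tunicamycin, which overlapped (log2 fold change 0.08 ± 0.07 SE, adjusted p = 0.47).

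**Figure D4:**
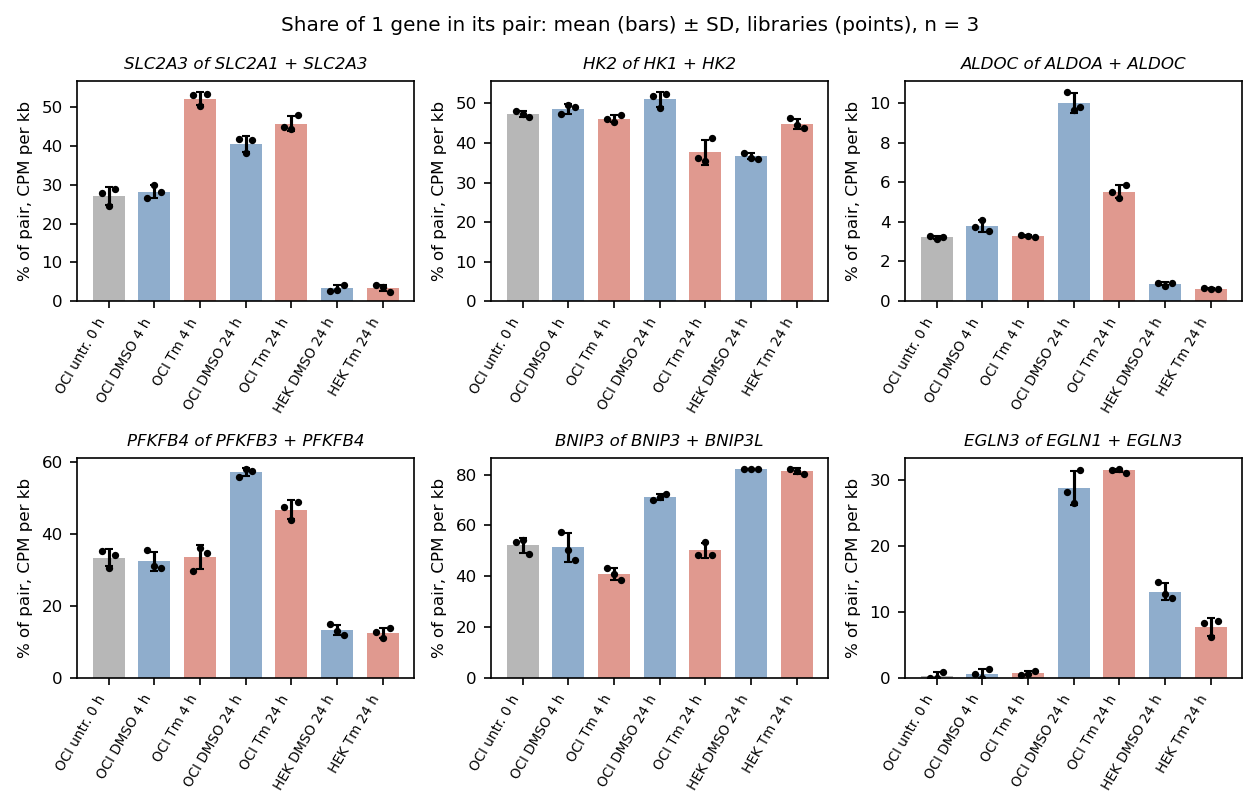
Share of 1 gene in the summed CPM per kb of its pair (y axis, percent, from 0) in the 7 groups, as mean (bars) ± SD with the 3 libraries as points, in grey for untreated, blue for DMSO and red for tunicamycin. ALDOC, PFKFB4, BNIP3 and EGLN3 take a larger share in DMSO 24 h than in DMSO 4 h, and SLC2A3 takes its largest share in tunicamycin 4 h.

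The tunicamycin effect differed between 24 h and 4 h for most of the group. By the interaction test, which compares the 2 differences directly, the effect was lower at 24 h than at 4 h in 20 of 33 genes and higher in 3, P4HA1, P4HA2 and NDRG1 (17.6% of all genes were lower and 17.5% higher). The median of the difference was -0.48 (all genes 0.03). Among the genes that passed, ALDOC, SLC2A3 and ENO2 differed most, by -1.27 ± 0.12 SE, adjusted p = 1e-07, -1.12 ± 0.14 SE, adjusted p = 3.7e-06 and -1.12 ± 0.24 SE, adjusted p = 0.00097. SLC2A1 and PFKFB3, in contrast, did not pass (0.03 ± 0.11 SE, adjusted p = 0.84; -0.04 ± 0.11 SE, adjusted p = 0.81).

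The effect also differed between the cell lines at 24 h. Against OCI-AML3 cells, the log2 fold change in HEK293T cells was higher in 16 of 33 genes and lower in 3, PKM, EGLN3 and NDRG1 (12.7% of all genes were higher and 13% lower), with a median difference of 0.28 (all genes -0.03). The difference was over 1 in ENO2 (1.34 ± 0.18 SE, adjusted p = 9.7e-06), HILPDA (1.13 ± 0.15 SE, adjusted p = 1.3e-05), BNIP3 (1.10 ± 0.14 SE, adjusted p = 5.4e-06) and HK2 (1.05 ± 0.11). PKM, the last enzyme of glycolysis, fell more in HEK293T cells (-0.56 ± 0.07) than in OCI-AML3 cells (-0.23 ± 0.07), a difference of -0.33 ± 0.10 SE, adjusted p = 0.02. The 3 lower differences were close to the threshold, and none of them passed when any 1 of the 3 HEK293T DMSO libraries was left out. Of the higher differences, those of MXI1, PFKP, ENO1, ALDOC and PGAM1 were also lost in 1 or more fits without 1 library.

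**Figure D5:**
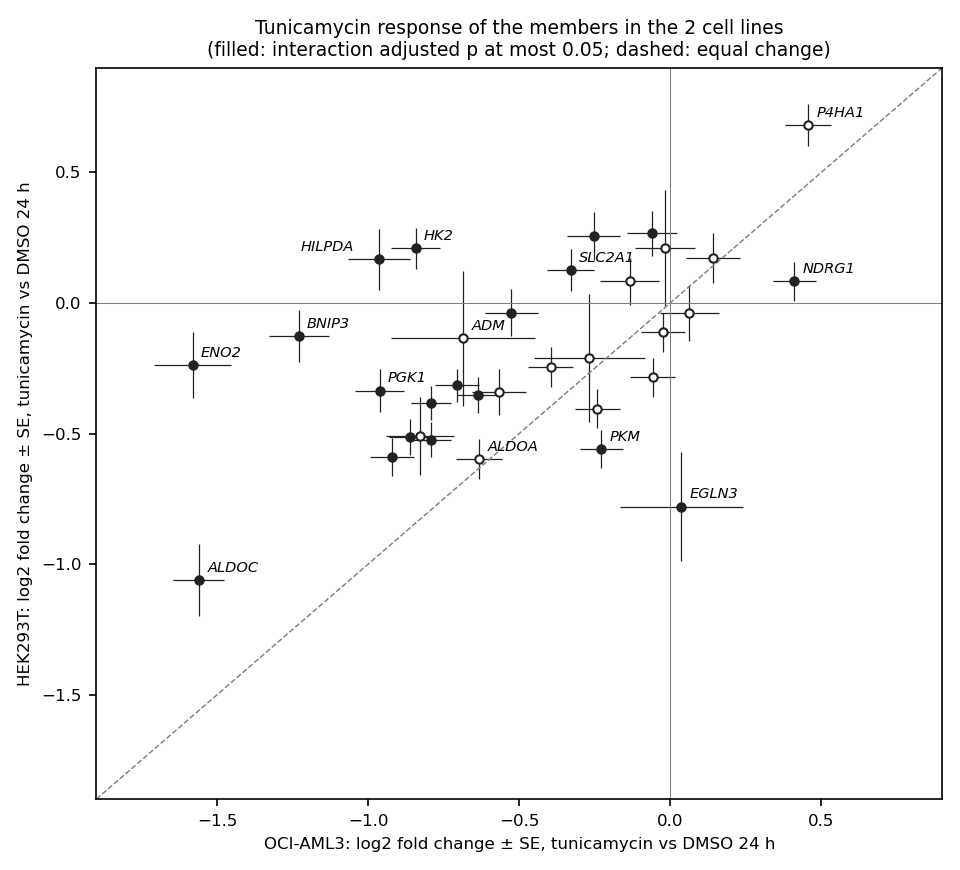
Log2 fold change ± SE upon 24 h of tunicamycin in OCI-AML3 (x axis) and HEK293T (y axis) cells for the 33 genes, n = 3 libraries per group, with filled points where the difference between lines passed the test, and a dashed line of equal change. Most filled points lie above the line, among them HK2, HILPDA, BNIP3 and ENO2, while PKM, EGLN3 and NDRG1 lie below it.

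With DMSO alone at 24 h the lines differed widely in level. Of the 33 genes, 21 were over 2-fold lower and 2 over 2-fold higher in HEK293T cells (24.3% of all genes were over 2-fold lower and 21.1% higher). SLC2A3, with the pseudogene reads described above, was lowest relative to OCI-AML3 cells (-6.66 ± 0.15 SE, adjusted p = 2.1e-21), followed by ALDOC (-5.42 ± 0.11 SE, adjusted p = 2.3e-22) and NDRG1 (-3.81 ± 0.08 SE, adjusted p = 1e-21). PFKM (1.64 ± 0.07 SE, adjusted p = 2.6e-16) and EGLN1 (1.37 ± 0.09 SE, adjusted p = 4.4e-12) were the 2 higher genes. Without TMM scaling the median of all genes shifted by 0.26 in this comparison, and the median of the 33 went from -1.28 to -1.02. The OCI-AML3 libraries in this comparison are those of DMSO 24 h, in which most of these genes were at their highest level in that line.

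Genes of the same pathways that were not among the 35 were taken from lists chosen by function. The lists were chosen with earlier results of these data known, so their counts are no independent check. Of 33 further glycolysis genes 26 were tested, of which 6 rose and 5 fell over time in DMSO, shares close to those of all genes tested (20.9% and 21.7%). PDK4, which like PDK1 restrains pyruvate oxidation, rose (1.40 ± 0.30, adjusted p = 0.00073), as did PGM1 (0.95), which links glycogen to glycolysis, and the lactate exporter SLC16A3 (0.63). TIGAR, which lowers fructose-2,6-bisphosphate, fell (-0.86), and so did the monocarboxylate carrier SLC16A1 (-0.49) and DLAT (-0.46), a subunit of pyruvate dehydrogenase. With tunicamycin 1 rose and 4 fell at 4 h, 4 rose and 5 fell at 24 h, and 4 rose and 4 fell in HEK293T cells, against 19% and 18.4%, 27.2% and 23.9%, and 12.7% and 13% of all genes. SLC2A10, a further glucose transporter, rose in each of the 3 (0.69, 1.36 and 0.93), while SLC16A3 (-0.94) and SLC16A1 (-0.63) fell at 4 h and HK3 (-1.16) fell at 24 h.

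Of 36 further hypoxia-inducible genes 31 were tested, and 26 rose over time in DMSO while 1 fell (20.9% and 21.7% of all genes), with a median log2 fold change of 0.86. STC1, a secreted regulator of calcium and phosphate, rose (6.22), and so did DDIT4 (4.37), an inhibitor of mTOR complex 1, whereas the transferrin receptor TFRC fell (-1.21). PLOD2, a collagen lysyl hydroxylase, also passed the test, from 0.065, 0 and 0.112 CPM in DMSO 4 h, at most 3 counts per library, to 1.54, 0.586 and 1.35 CPM in DMSO 24 h. With tunicamycin 12 of the 31 rose and 6 fell at 4 h (19% and 18.4% of all genes), 12 rose and 11 fell at 24 h (27.2% and 23.9%), and 8 rose and 6 fell in HEK293T cells (12.7% and 13%). The genes that rose most included STC2 (6.63, 2.60 and 2.0) and DDIT4 at 4 h (5.45), both also known targets of the unfolded protein response. Among those that fell at 24 h were FAM162A (-1.45), a mitochondrial protein, and the glycogen enzymes GYS1 (-0.92) and GBE1 (-0.64).

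No transcript of the regulators of the pathway passed the test with a change over 2-fold over time. Of 16 listed, 14 were tested, of which 1 rose over time in DMSO, ARNT (0.26), and 5 fell, led by MTOR (-0.51), CUL2 (-0.44) and HSP90AA1 (-0.43), against 20.9% of all genes that rose and 21.7% that fell. With tunicamycin at 24 h 4 rose, led by EPAS1 (1.19 ± 0.12, adjusted p = 4.5e-08), HIF1A (0.44) and VHL (0.33), and 7 fell (27.2% and 23.9% of all genes), while at 4 h 3 rose and 2 fell (19% and 18.4%). In HEK293T cells VHL rose (0.69) and 7 fell (12.7% and 13% of all genes), with EPAS1 at -0.57, opposite to OCI-AML3 cells (difference -1.76 ± 0.20, adjusted p = 1.2e-06). HIF proteins are controlled mainly by degradation, which these counts do not show. Of 9 pentose phosphate pathway genes, which branch off after hexokinase, 8 were tested. Over time 4 rose, such as TKT (0.74) and PGD (0.47), and 2 fell, RPE (-0.54) and RPIA (-0.36), against the same 20.9% and 21.7% of all genes. With tunicamycin at 24 h 6 fell (23.9% of all genes), such as TKT (-0.57) and TALDO1 (-0.52), and H6PD, an enzyme inside the ER, rose (0.50), as it did in HEK293T cells (0.61). At 4 h H6PD fell (-0.36 ± 0.11, adjusted p = 0.012), the 1 gene of the list that passed the test there, and its effect differed between 24 h and 4 h (0.86 ± 0.15, adjusted p = 0.00018).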

How the data were processed

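Polyadenylated RNA of 21 libraries was sequenced in pairs and, per the labels and the study's methods, aligned by the authors with STAR and quantified with RSEM against Ensembl release 101 of GRCh38 (strand use is not given in the sources used here). The deposited values are expected counts per gene, of which 3.54 to 4.22% per library are not whole. They were rounded to whole numbers.

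The 35 genes, the further lists and the rule for named genes were chosen with earlier results of these data known. By that rule, values in every library are given for members that changed over 2-fold in the comparison over time or with tunicamycin and, for a role with none, for its most abundant member, and at most 3 genes per direction are named from each further list; GAPDH's values, and genes given only by mean or fold change, were added after their values were seen.

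Genes reaching 1 CPM in 8 or more libraries were fitted with TMM factors (0.913 to 1.11) and edgeR 4.0.16 quasi-likelihood tests (R 4.3.3) over all 7 groups, without a replicate block. SE was taken from the log2 fold change and its F statistic (absolute change over root F). Positions are from GENCODE 44. Counts could be split with overlapping genes or pseudogenes. Alternatives used limma 3.58.1 voom, DESeq2 1.42.0, other scalings, filters and sample sets, pseudogene reads added, a replicate block and each library left out. The pipeline was tested on simulated data.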

Additional observations from a re-analysis of the deposited data

Results flagged for a closer look

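Both groups of results here were singled out because the effect of tunicamycin differed between 2 settings by a direct test of the difference (edgeR, adjusted p at most 0.05). Within OCI-AML3 cells, the log2 effect at 24 h minus that at 4 h was, in order of role, SLC2A3 (-1.12), HK2 (-0.58), GPI (-0.69), PFKL (-0.53), PFKM (-0.36), PFKP (-0.56), ALDOA (-0.55), ALDOC (-1.27), TPI1 (-0.34), PFKFB4 (-0.71), GAPDH (-0.40), PGK1 (-0.70), PGAM1 (-0.57), ENO1 (-0.58), ENO2 (-1.12), LDHA (-0.31), PDK1 (-0.48), BNIP3 (-0.76), P4HA1 (0.43), P4HA2 (0.47), HILPDA (-0.58), NDRG1 (0.35) and MXI1 (-0.64). The TPI1 difference was lost in 7 fits that left out 1 library (adjusted p = 0.06 to 0.13).

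At 24 h, the log2 effect in HEK293T cells minus that in OCI-AML3 cells was SLC2A1 (0.46), HK2 (1.05), GPI (0.41), PFKL (0.49), PFKM (0.39), PFKP (0.27), ALDOC (0.50), PGK1 (0.63), PGAM1 (0.33), ENO1 (0.28), ENO2 (1.34), PKM (-0.33), LDHA (0.35), PDK1 (0.51), BNIP3 (1.10), EGLN3 (-0.82), HILPDA (1.13), NDRG1 (-0.33) and MXI1 (0.33). In this second group MXI1, EGLN3, PFKP and ENO1 had an adjusted p of 0.046, 0.042, 0.039 and 0.033. What sets these differences was not tested.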

How the results depend on the processing

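No gene of the 33 changed direction between a called value and any alternative. For the comparison over time every gene kept its side of the threshold in all settings, and 15 to 17 rose over 2-fold when 1 library was left out.

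Without TMM scaling the median over time was 0.86, 1 gene rose in HEK293T cells, the median between the lines was -1.02, and the summed CPM of the 35 genes was 25661 and 18530 in OCI-AML3 DMSO and tunicamycin 24 h and 12396 and 9439 in the HEK293T groups. With only the groups compared, 8 genes fell with tunicamycin at 4 h, and PKM lost its call at 24 h in OCI-AML3 cells (adjusted p = 0.071). With every gene of at least 1 count, 5 fell over 2-fold at 24 h, 1 rose in HEK293T cells, 1 had a lower effect in HEK293T than in OCI-AML3 cells, and the median between the lines was -1.50. That median was -1.36 with DESeq2 and with its size factors, and -1.38 with 1 CPM in at least 3 libraries. The causes were not tested.

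Leaving out 1 library gave 8 to 12 genes that fell at 4 h (8 without tunicamycin replicate 3), 1 to 2 that rose in HEK293T cells, 0 to 1 that fell there over 2-fold (0 without DMSO replicate 1), a median there of -0.28 to -0.19, a median of -0.093 to 0.017 between untreated and DMSO 4 h, 0 to 3 genes with a lower effect in HEK293T cells, and a median of -1.35 to -1.22 between the lines. Single-gene calls were lost in 18 of these fits by gene at 4 h, 10 at 24 h, 16 in HEK293T cells, 9 for the difference between times and 42 for that between lines. Calls were gained in 1, 2, 0, 2 and 2, in the same order. The gains were PDK1 at 4 h (adjusted p = 0.038) and P4HA2 and EGLN1 at 24 h (0.035 and 0.015). Between times they were ANKRD37 and KDM3A (0.028 and 0.042), and between lines EGLN1 and P4HA1 (0.027 and 0.029). For the difference between times TPI1 was lost in 7 such fits and LDHA in 2, and TPI1, LDHA and NDRG1 were lost with only the groups compared (adjusted p = 0.13, 0.08 and 0.056). PFKM lost its difference between times with every gene of at least 1 count (-0.39, 0.058), and ALDOC that between lines with limma voom (0.51, 0.066). By gene, settings that left out no library lost 4 calls between times and 8 between lines, and gained 0 and 1.

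Between libraries of the same replicate number, correlations of deviations from the group mean ranged from -0.139 to 0.134. Between different numbers they ranged from -0.173 to 0.22. With 3 libraries per group, each set against its own group mean, these values cannot exclude pairing. With the replicate block PFKFB3 (-0.20, adjusted p = 0.066) and TPI1 (-0.22, 0.056) lost their call at 4 h, ENO2 (-0.46, 0.044) gained one, MXI1 (0.33, 0.06) lost that between lines, and no other call changed. No block was fitted between the lines in DMSO. Genes at a few counts (CA9, ANGPTL4, EGLN3 and ADM at 4 h) are limited by depth.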
